A study of Mus musculus with 12 samples.

Results

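The 48 genes described here encode the proteins that license replication origins, unwind and copy DNA, supply its precursors and restore chromatin behind the fork. They were matched by gene name in a table of 54532 genes, and all 48 were found. The matching used no measured value, but the members were chosen with earlier results of these data known. The cells were MC38, a line from a mouse colorectal tumour, and their RNA was sequenced in 12 libraries, 3 for each of 4 groups. Combination cultures received nintedanib at 3 µM and 8 Gy of X-rays. Nintedanib cultures received 3 µM of the drug alone, and radiation cultures received 8 Gy alone. A treatment time of 24 hours is listed for each treated group. The labels name the last group only as control and give it no time or vehicle. They name no introduced gene or allele in any group. The study's text says that the experiment was repeated independently. Each p-value rests on the spread between repeats of 1 line within groups, estimated over all 12 libraries and not only the groups compared. Nintedanib is an inhibitor of several growth factor receptor kinases, among them those for VEGF, FGF and PDGF. The design asks how RNA changes with each treatment and whether either change differs in the presence of the other.

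DNA replication starts in G1, when the origin recognition complex, Cdc6 and Cdt1 load the MCM2-7 helicase onto origins. In S phase Cdc45 and the GINS complex turn the loaded helicase into an active one, and polymerase alpha-primase, delta and epsilon copy the strands behind it with the PCNA clamp. Many of these genes are transcribed at the G1/S boundary under E2F transcription factors. Their RNA is therefore usually higher in cultures with more cells in late G1 and S phase.

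Values are FPKM, the fragments of a gene scaled to the length of its model and to library depth. Fold changes, written as signed values with their SE, are log2 differences of FPKM + 1, which understate the change of low genes. A gene was called where limma's two-sided test gave a Benjamini-Hochberg adjusted p under 0.05 over all 13012 genes tested. All 48 passed the filter on low values (1 FPKM or more in 3 or more libraries), and 46 stayed above 1 FPKM in every library. Libraries held 16103528 to 18196615 fragments, and in a gene 1 kilobase long an FPKM of 1 stood for 16.4 to 18.7 of them. Among cell type markers used to check the line, the mesenchymal gene Vim was at 498 FPKM or more in every library. The epithelial marker Epcam and the T cell marker Cd3e were listed at 0. Of 7 mesenchymal markers 2 rose in the combination (28.6%), 2 with nintedanib (28.6%) and 0 with radiation, and 0 fell. Of all tested genes 22.3%, 19.7% and 8.04% rose in these comparisons, and 25.0%, 22.0% and 9.90% fell. That list summed to 1696 to 1910 FPKM in combination libraries, 1659 to 1740 with nintedanib, 1390 to 1527 with radiation and 1433 to 1548 in controls. Of 8 epithelial markers 2 were high enough to test, Cdh1 and Krt19, and the list summed to 11.3 to 13.7 FPKM in combination libraries, 6.45 to 9.498 with nintedanib, 6.80 to 7.16 with radiation and 4.92 to 5.82 in controls. In the combination both rose against control, Cdh1 at 0.76 and Krt19 at 1.30. With nintedanib Krt19 rose, at 0.86, and with radiation Cdh1 rose, at 0.29. Of 6 leukocyte markers only Lyz2 was tested, which rose in the combination at 0.79 and with nintedanib at 0.59. That list summed to 0.639 to 1.59 FPKM in combination libraries, 0.557 to 1.18 with nintedanib, 0.436 to 0.881 with radiation and 0.132 to 0.308 in controls. The part of these markers in the levels of replication genes was not tested. Nintedanib replicate 3 stood apart in small RNA (0.017% of fragments, against 0.087 to 0.199% in the other libraries) and in mitochondrial RNA (2.12%, against 1.23 to 1.64%). In bulk RNA, fewer cells in S phase and less RNA per cell cannot be told apart.

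The summed level of the 48 genes was 1205 to 1470.5 FPKM in combination libraries, 1026 to 1370.5 with nintedanib, 1597 to 1616 with radiation and 1401 to 1455 in controls. Every radiation library lay above every control, and every nintedanib library lay below. The combination libraries spread across the range, with replicate 3 above the controls and the others below them. The genes took 0.515 to 0.604% of all fragments in combination libraries, 0.438 to 0.564% with nintedanib, 0.658 to 0.684% with radiation and 0.564 to 0.577% in controls. Among the genes Pcna, the sliding clamp, had the highest level, between 132.3 and 179.6 FPKM. Rrm2, Mcm5 and Mcm6 followed. Ung and Fen1 had the lowest, with Fen1 between 0.654 and 2.12 FPKM and as few as 29 fragments.

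**Figure D1:**
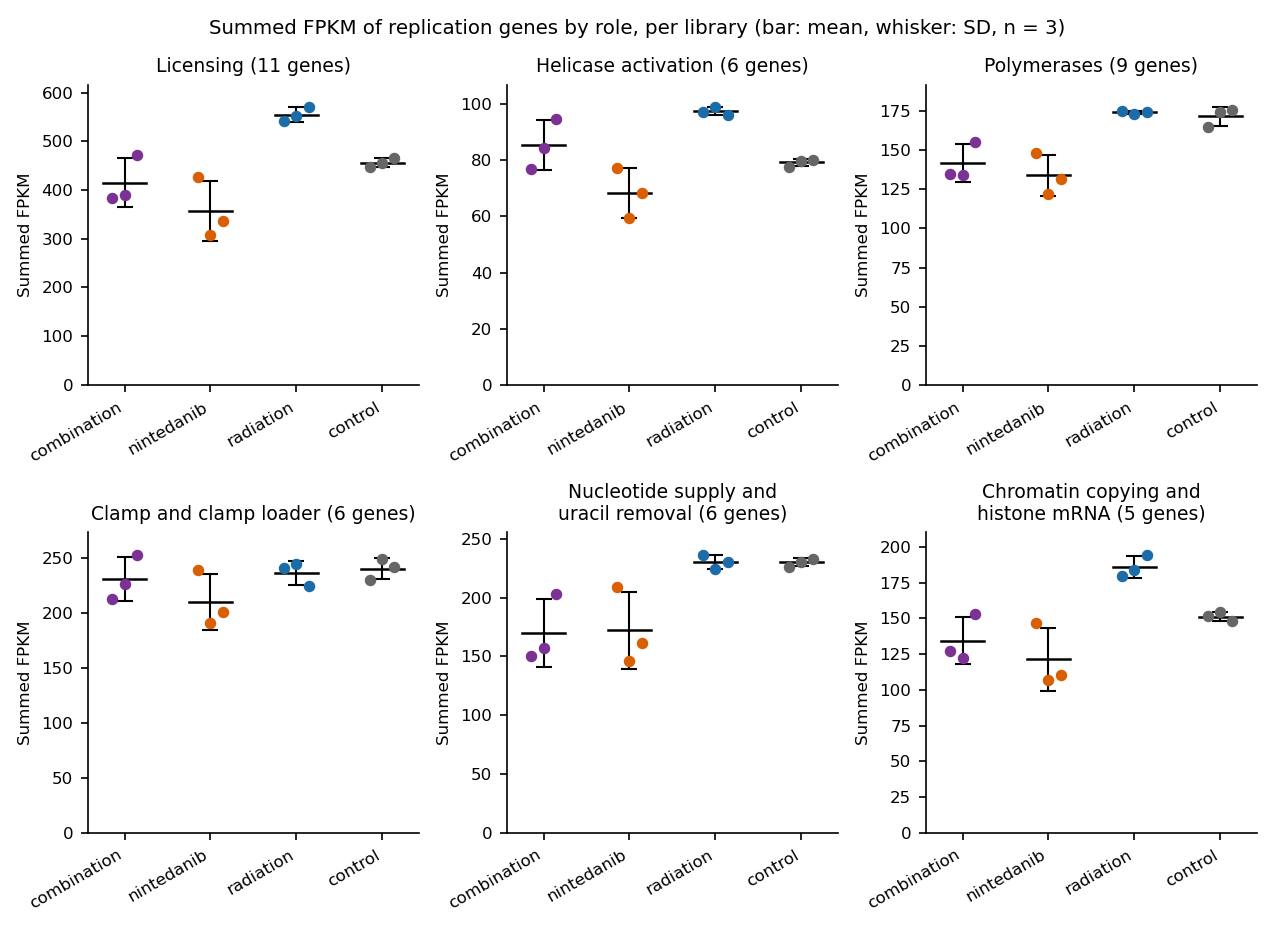
Summed FPKM of the genes of 6 roles (y axes, starting at 0) in each of the 12 libraries; points are libraries, horizontal bars group means and whiskers SD over 3 libraries. The 3 radiation libraries lie above all controls for licensing and helicase activation, and the nucleotide supply genes are lowest in combination and nintedanib libraries.

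The replicates of the drug-treated groups differed in these genes as a block. Nintedanib replicate 1 was the highest of its group for 40 of the 48 genes, against 38.4% of all tested genes, and replicate 2 was the lowest for 40. Combination replicate 3 was the highest of its group for 41 of the 48, against 34.9% of all tested genes. The median coefficient of variation of the 48 genes was 11.16% in combination libraries, 15.81% with nintedanib, 5.08% with radiation and 4.12% in controls. Over all tested genes it was 10.21% in combination libraries, 11.44% with nintedanib, 8.16% with radiation and 8.05% in controls. Rrm2, the small subunit of ribonucleotide reductase, shows this spread, at 72.3, 66.5 and 110.5 FPKM in combination libraries, 107, 63.4 and 70.9 in nintedanib libraries, 97.8, 97.0 and 98.9 in radiation libraries and 82.7, 81.1 and 86.4 in controls. Nintedanib replicate 1 and combination replicate 3 were the high libraries for Rrm2, above every control, while the other drug-treated libraries lay below every control.

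**Figure D2:**
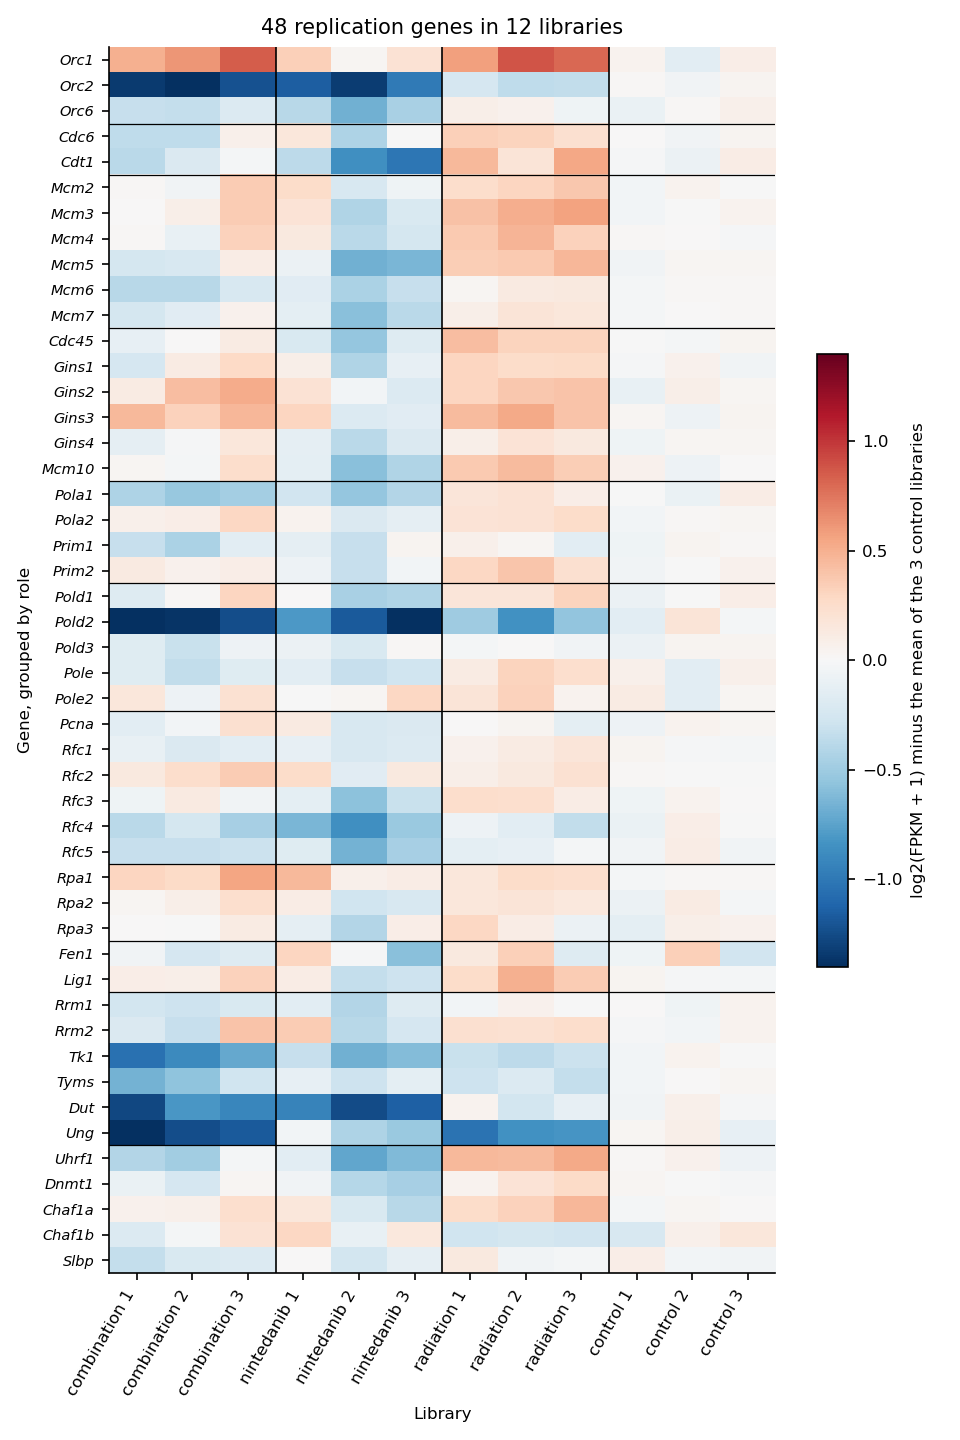
Level of each of the 48 genes (rows, grouped by role) in each of the 12 libraries (columns), as log2(FPKM + 1) minus the mean of the 3 control libraries; colour runs from -1.4 (blue) to 1.4 (red). Orc2, Pold2 and Dut are blue in all nintedanib and combination libraries, Ung is blue in all radiation and combination libraries, and combination replicate 3 and nintedanib replicate 1 are paler or redder than their fellow replicates over most rows.

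With nintedanib alone, many replication genes fell and none rose past the test. Of the 48 genes, 21 fell (43.8%) and 0 rose, by limma also 0 at an unadjusted p under 0.05 and 0 by limma voom, against 22.0% of all tested genes that fell and 19.7% that rose (41.6% in either direction). The median log2 fold change was -0.18, against -0.02 over all genes, and 43 of the 48 estimates were below 0. The largest decreases were those of Orc2 at -1.16, Pold2 at -1.14, Dut at -1.11, Cdt1 at -0.74 and Rfc4 at -0.68. The libraries of both groups did not overlap for 22 genes that were lower and 1 that was higher, Rpa1, against 26.5% and 24.5% of all tested genes (51.1% together). The count of genes that fell was 12 without control replicate 3, 10 without nintedanib replicate 2 and 15 without nintedanib replicate 3. When FPKM were rescaled to a common sum, 13 fell and 1 rose, the calls of Mcm6, Cdc45, Gins4, Pole, Rfc1, Rfc3, Rrm1 and Dnmt1 were lost, and the share of rises among all calls in the table went to 60.3%, against 47.2% as deposited.

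Radiation alone gave fewer calls than nintedanib in the main fit, and mostly upwards. That order depended on the setting. With only the groups compared there were 24 calls with radiation and 13 with nintedanib. Rescaled to a common sum there were 18 and 14. Of the 48 genes, 8 rose (16.7%) and 4 fell (8.33%), against 8.04% and 9.90% of all tested genes (17.9% in either direction). The median was 0.17, against -0.04 over all genes. Orc1 rose most, by 0.76, followed by Mcm3, Uhrf1, Gins3, Mcm10, Lig1, Cdc45 and Prim2. Ung fell most, at -0.91, followed by Pold2, Tk1 and Orc2. For 29 of the 48 genes all radiation libraries lay above all controls, against 17.4% of tested genes, and for 6 all lay below, against 24.3% (41.8% together). The count of calls, 12 in both directions together, was 4, 2 and 4 without control replicates 1, 2 and 3, 5, 2 and 5 without radiation replicates 1, 2 and 3, 6 when all genes above 0 in at least 3 libraries were tested, and 24 when only these 2 groups were fitted. Rescaled to a common sum, 16 rose and 2 fell, and rises made up 70.6% of all calls in the table, against 44.8% as deposited. Of 18 genes of G2/M and mitosis, 16 rose and none fell with radiation, with summed levels of 1617 to 1749 FPKM in radiation libraries and 957 to 989 FPKM in controls. They were also high in combination libraries, at 1378 to 1448 FPKM, and stood at 796 to 975 FPKM with nintedanib. Their part in the levels of replication genes was not tested.

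With both treatments the 48 genes split. Against control, 4 rose (8.33%) and 15 fell (31.2%), against 22.3% and 25.0% of all tested genes (47.2% in either direction). The median was -0.07 as deposited and -0.004 after rescaling to a common sum, where 24 estimates were above 0 and 24 below. With that rescaling 6 rose and 8 fell, and the calls of Orc6, Prim1, Pole, Rfc4, Rfc5, Rrm1 and Slbp were lost. Orc1, Gins3, Rpa1 and Gins2 rose. Pold2 at -1.40, Orc2 at -1.33, Ung at -1.30, Dut at -1.001 and Tk1 at -0.88 fell most. Groups did not overlap for 9 genes that were higher and 16 that were lower, against 26.7% and 30.1% of all tested genes (56.8% together).

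Set against radiation alone, the combination had 18 genes lower (37.5%) and 0 higher, by limma also 0 at an unadjusted p under 0.05 and 0 by limma voom, against 17.3% lower and 17.2% higher among all tested genes (34.4% in either direction), with a median of -0.25 against -0.01. All combination libraries lay below all radiation libraries for 27 of the 48 genes, against 24.1% of tested genes, and above them for 2, against 23.3% (47.4% together). Without combination replicate 2 the count was 11. Set against nintedanib alone, the combination had 2 genes higher (4.17%) and 1 lower (2.08%), against 3.17% and 2.37% of all tested genes (5.55% in either direction), with a median of 0.18 against -0.01. Orc1 and Mcm10 were higher and Ung was lower, and the calls of Orc1 and Mcm10 were lost in 12 and 7 of 19 alternative settings. That count was 14 without nintedanib replicate 1, of which 13 were higher, and 1 without nintedanib replicate 2, without nintedanib replicate 3 or without combination replicate 2. Groups did not overlap for 9 genes that were higher and 2 that were lower, against 10.4% and 11.8% of tested genes (22.2% together).

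**Figure D3:**
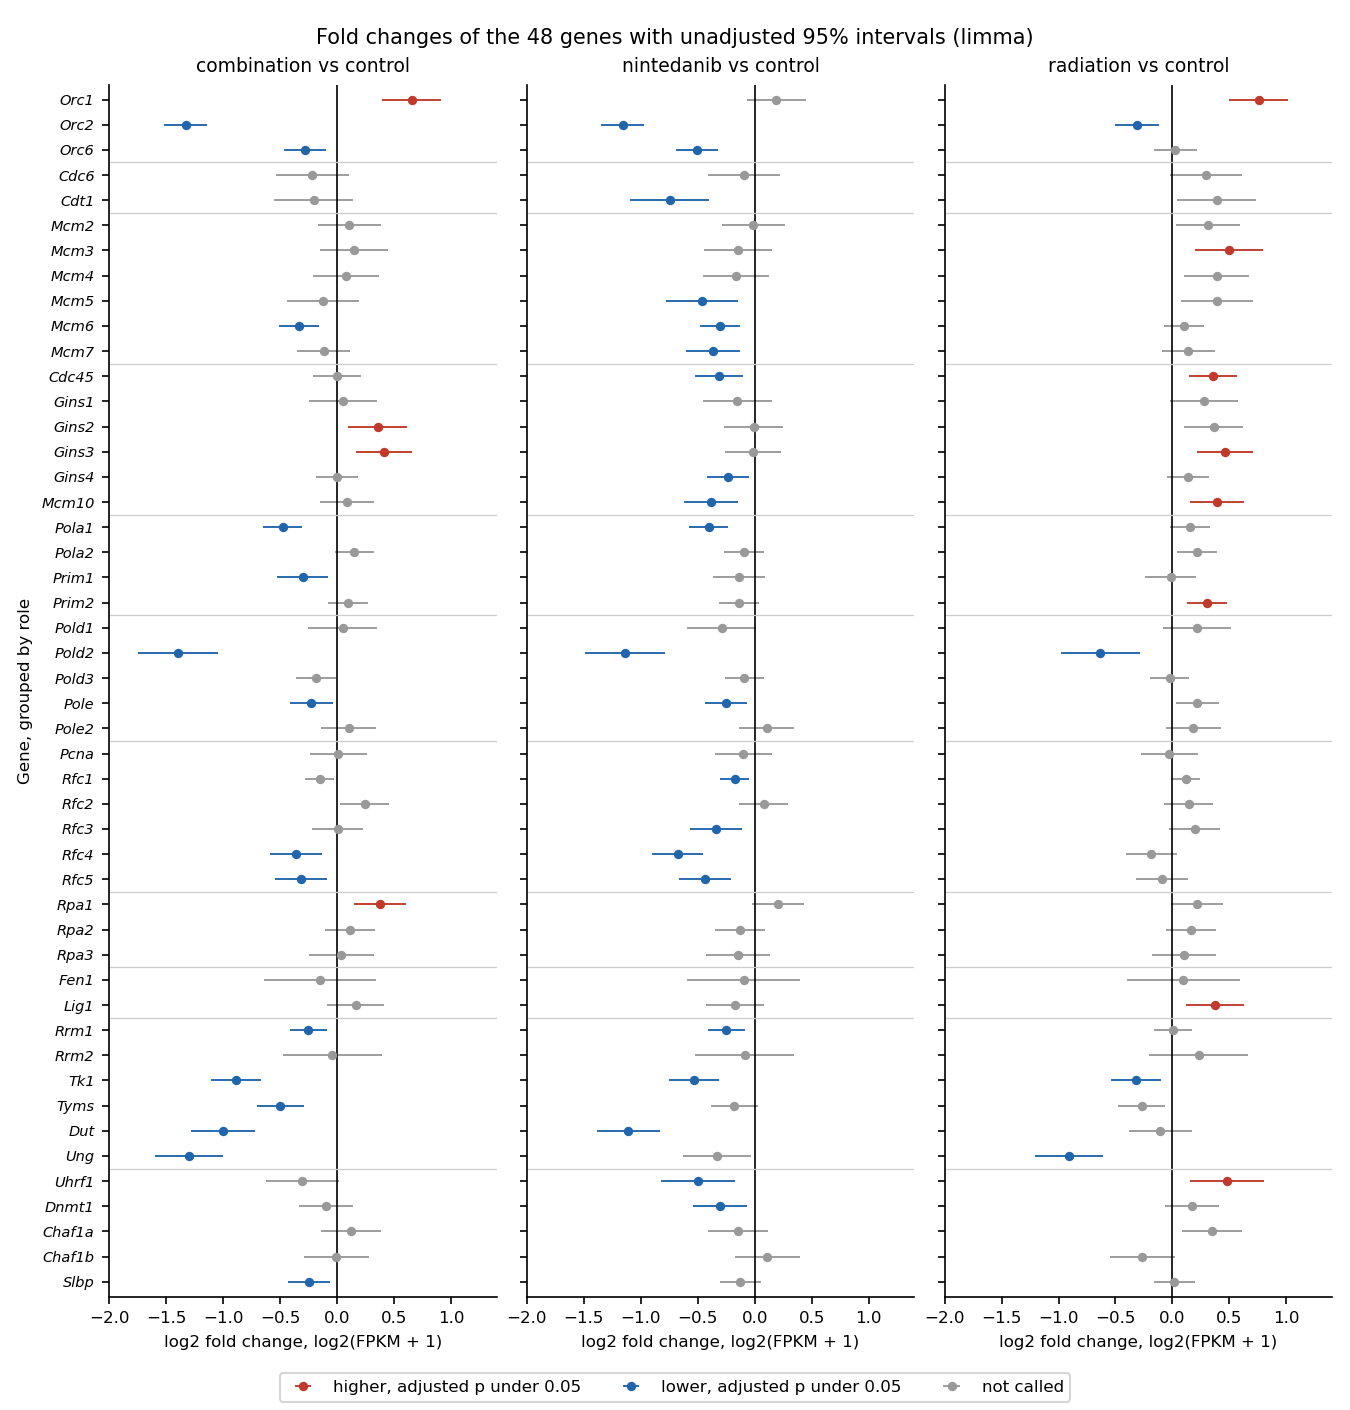
Log2 fold change on log2(FPKM + 1) of each of the 48 genes (rows, grouped by role) in combination, nintedanib and radiation cultures against control; points are limma estimates, lines unadjusted 95% intervals, red and blue mark genes called higher and lower at an adjusted p under 0.05. Blue points number 15, 21 and 4 in the 3 panels and red points 4, 0 and 8.

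Because many genes of this set are known E2F targets, their start sites were searched for the E2F-like letters TTTGGCGC and TTTCGCGC on both strands, which can overlap each other. RefSeq promoter windows (GRCm38.p6, 250 bases before to 50 after a start) were matched for 41 of the 48 genes, and none for Prim2, Gins1, Gins2, Gins4, Mcm4, Pole or Rfc2. The motif was present for 12 of the 41 (29.3%), against 174 of 8949 tested genes with a window (1.94%) and 0.813% of all 32851 windows. The 12 were Mcm3, Mcm5, Mcm6, Mcm7, Orc1, Cdt1, Rfc3, Lig1, Pola1, Pole2, Uhrf1 and Dnmt1. It was held by 8 of 19 genes that fell with nintedanib and 4 of 22 that did not, and by 4 of 7 that rose with radiation. A shorter form, TTGGCGC or TTCGCGC, was held by 36.6% of the 41 and 8.55% of tested genes. CCAAT was held by 63.4% and 43.5%, and CACGTG by 17.1% and 12.1%. Orc2, Pold2, Dut, Tk1 and Ung, among the genes that fell most, held no E2F-like match in these windows. A match is a description of the letters only. Upstream matches of Orc1, which did not fall with nintedanib, and of Rfc3 and Dnmt1, which did, are not shown. The upstream stretches below are all from genes that fell with nintedanib. They carry the E2F-like letters (capitals), except that of Cdt1, which fell strongly and whose match lies after the start. Each is 120 bases, read 5′ to 3′, at chr1:128359706-128359825 on the minus strand for Mcm6, chr8:75109336-75109455 on the plus strand for Mcm5, chrX:93632194-93632313 on the minus strand for Pola1, chr17:56304108-56304227 on the plus strand for the later start of Uhrf1 and chr8:122567895-122568014 on the plus strand for Cdt1.
Mcm6: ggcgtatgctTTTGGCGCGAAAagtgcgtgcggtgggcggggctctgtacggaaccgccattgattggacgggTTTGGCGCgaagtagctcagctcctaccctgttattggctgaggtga
Mcm5: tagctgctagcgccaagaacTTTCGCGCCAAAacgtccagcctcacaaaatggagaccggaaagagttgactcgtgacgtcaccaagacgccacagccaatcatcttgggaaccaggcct
Pola1: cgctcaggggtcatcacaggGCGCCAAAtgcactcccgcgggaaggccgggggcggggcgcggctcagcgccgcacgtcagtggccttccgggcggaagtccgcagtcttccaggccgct
Uhrf1: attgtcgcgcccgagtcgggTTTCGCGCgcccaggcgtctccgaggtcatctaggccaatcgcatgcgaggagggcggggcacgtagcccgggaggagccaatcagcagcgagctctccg
Cdt1: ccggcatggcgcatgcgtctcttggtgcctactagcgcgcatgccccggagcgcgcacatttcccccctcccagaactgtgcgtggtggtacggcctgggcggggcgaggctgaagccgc
The matches of Mcm6 begin at positions -110, -106 and -47 from its start, those of Mcm5 at -153 and -149, that of Pola1 at -138 and that of Uhrf1 at -185. In Mcm6 and Mcm5 a match on each strand overlaps its neighbour.

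Licensing genes (11) had a median of -0.12 in the combination, -0.31 with nintedanib and 0.31 with radiation, all against control. Orc2, a core subunit of the origin recognition complex (chr1:58462771-58505109, minus strand), had 9.96, 9.23 and 10.9 FPKM in combination libraries, 11.4, 9.98 and 12.9 in nintedanib libraries, 22.5, 20.7 and 20.8 in radiation libraries and 26.9, 25.7 and 27.3 in controls. The combination and nintedanib libraries lay far below the rest without overlapping them, and the radiation libraries lay below the controls. Orc2 fell in the combination, at -1.33 (SE 0.087, adjusted p = 8.78e-07), with nintedanib, at -1.16 (SE 0.087, adjusted p = 2.46e-06), and with radiation, at -0.31 (SE 0.087, adjusted p = 0.0318). The drop with radiation lost its call in 7 of 19 alternative settings, with an adjusted p of up to 0.241, and the others kept theirs in all 19. Orc1, the subunit that binds and hydrolyses ATP and cycles with the cell in mammals (chr4:108579423-108614833, plus strand), moved the other way. It had 5.47, 6.07 and 7.30 FPKM in combination libraries, 4.77, 3.69 and 4.30 in nintedanib libraries, 5.87, 7.49 and 7.05 in radiation libraries and 3.77, 3.16 and 3.89 in controls. All irradiated libraries lay above all controls, and the nintedanib libraries overlapped them. Orc1 rose in the combination, at 0.66 (SE 0.12, adjusted p = 0.000863), and with radiation, at 0.76 (SE 0.12, adjusted p = 0.0021), in all 19 settings, and stood at 0.19 (SE 0.12, adjusted p = 0.227) with nintedanib. Orc6, the smallest subunit, had 23.6, 23.3 and 26.0 FPKM in combination libraries, 22.4, 18.3 and 21.4 in nintedanib libraries, 31.5, 31.0 and 28.3 in radiation libraries and 27.8, 30.1 and 31.3 in controls. All nintedanib and combination libraries lay below all controls, nintedanib lowest. Orc6 fell with nintedanib, at -0.50 (SE 0.084, adjusted p = 0.000643), and in the combination, at -0.28 (SE 0.084, adjusted p = 0.0171). The combination call was lost without control replicate 3, combination replicate 1 or combination replicate 2, with an adjusted p of up to 0.0879 over all settings.

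Cdt1, which brings the helicase to origins and is destroyed once S phase begins (chr8:122568015-122573554, plus strand), had 35.6, 40.3 and 45.6 FPKM in combination libraries, 36.0, 25.2 and 22.6 in nintedanib libraries, 64.0, 52.7 and 68.0 in radiation libraries and 45.8, 43.9 and 50.1 in controls. Nintedanib libraries lay below every control, with replicates 2 and 3 lowest of all, and the combination libraries overlapped the controls while lying below every radiation library. Cdt1 fell with nintedanib, at -0.74 (SE 0.16, adjusted p = 0.00296), and in the combination against radiation alone, at -0.59 (SE 0.16, adjusted p = 0.0134). The second call was lost without radiation replicate 3 (adjusted p = 0.0527). Cdc6, the ATPase that helps load the helicase, had 4.72, 4.74 and 6.69 FPKM in combination libraries, 7.19, 4.44 and 6.31 in nintedanib libraries, 8.28, 8.14 and 7.61 in radiation libraries and 6.39, 6.10 and 6.56 in controls. Its combination libraries lay below the radiation libraries, with a difference of -0.51 (SE 0.15, adjusted p = 0.0184). No comparison with control passed the test for Cdc6. Its call was lost without either of radiation replicates 1 and 2 or combination replicates 1 and 2 (adjusted p up to 0.071 over all settings).

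The 6 MCM2-7 genes encode the subunits of the replicative helicase, and none of the 6 passed the test as higher with nintedanib or as lower with radiation. Mcm5 (chr8:75109569-75128439, plus strand) had 68.8, 70.0 and 88.1 FPKM in combination libraries, 77.2, 51.2 and 52.2 in nintedanib libraries, 104, 106 and 114 in radiation libraries and 78.9, 83.5 and 83.4 in controls. Radiation libraries were the highest without overlap, and nintedanib replicate 1 lay just under the controls while replicates 2 and 3 lay far under them. Mcm5 fell with nintedanib, at -0.46 (SE 0.14, adjusted p = 0.023), a call that 5 of 19 settings lost, and in the combination against radiation, at -0.51 (SE 0.14, adjusted p = 0.0173). Mcm6 had 64.2, 64.1 and 71.8 FPKM in combination libraries, 75.2, 61.7 and 67.3 in nintedanib libraries, 85.9, 92.2 and 93.1 in radiation libraries and 82.9, 85.0 and 84.9 in controls. Both drug-treated groups lay below both others, with -0.34 (SE 0.080, adjusted p = 0.00487) for the combination and -0.31 (SE 0.080, adjusted p = 0.00911) for nintedanib against control. The smallest change of the family was that of Mcm2 with nintedanib at -0.01, with 32.6, 23.0 and 26.0 FPKM in nintedanib libraries and 26.4, 28.1 and 27.1 in controls. Mcm7 fell with nintedanib, with a log2 fold change of -0.37 and Mcm3 rose with radiation by 0.50. With radiation all 6 genes had radiation libraries above every control, with estimates of 0.10 to 0.50, but only the Mcm3 rise passed the test, with 81.5, 87.7 and 91.0 FPKM in radiation libraries and 59.3, 61.0 and 63.0 in controls (adjusted p = 0.0299). That call was lost when any control or radiation library was left out. Mcm4 passed in no comparison. The nintedanib call of Mcm5 was lost without control replicate 2 or 3 or nintedanib replicate 2 or 3 (adjusted p up to 0.0932 over all settings), and that of Mcm7 without control replicate 3 or nintedanib replicate 2 (adjusted p up to 0.07 over all settings). The Mcm5 call against radiation was lost without radiation replicate 3 or combination replicate 1 or 2 (adjusted p up to 0.0628 over all settings).

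Helicase activation genes (6) had medians of 0.07 in the combination, -0.19 with nintedanib and 0.36 with radiation. Cdc45, a subunit of the active helicase, had 15.9, 17.3 and 18.9 FPKM in combination libraries, 14.8, 11.6 and 15.1 in nintedanib libraries, 23.6, 21.7 and 21.8 in radiation libraries and 17.2, 17.0 and 17.8 in controls. Radiation libraries were highest, nintedanib libraries lowest, and the combination libraries overlapped the controls. Cdc45 fell with nintedanib, at -0.31 (SE 0.095, adjusted p = 0.0209), and rose with radiation, at 0.35 (SE 0.095, adjusted p = 0.0277), while the combination against control gave 0.00 (SE 0.095, adjusted p = 0.997). Mcm10, needed for the loaded helicase to start unwinding, showed the same order at 6.18, 5.94 and 7.39 FPKM in combination libraries, 5.39, 3.70 and 4.26 in nintedanib libraries, 8.11, 8.61 and 7.94 in radiation libraries and 6.34, 5.73 and 6.09 in controls. It fell with nintedanib, at -0.38 (SE 0.11, adjusted p = 0.0143), rose with radiation, at 0.39 (SE 0.11, adjusted p = 0.0306), and was higher in the combination than with nintedanib alone, at 0.47 (SE 0.11, adjusted p = 0.0298). Of the GINS genes, Gins3 had 10.2, 9.25 and 10.3 FPKM in combination libraries, 9.09, 6.197 and 6.36 in nintedanib libraries, 10.2, 10.9 and 9.85 in radiation libraries and 7.38, 6.81 and 7.42 in controls. Both irradiated groups lay above every control, and Gins3 rose in the combination, at 0.41 (SE 0.11, adjusted p = 0.0106), and with radiation, at 0.46 (SE 0.11, adjusted p = 0.0181). Gins2 rose in the combination, at 0.36 (SE 0.12, adjusted p = 0.0264), with 7.41, 9.44 and 10.1 FPKM there and 6.19, 7.22 and 6.88 in controls. With radiation alone Gins2 missed the threshold at 0.36 (SE 0.12, adjusted p = 0.0542). Gins4 fell with nintedanib, at -0.23 (SE 0.084, adjusted p = 0.0437), a call that 15 of 19 settings lost. Gins1 was called nowhere. The calls of Cdc45 and Mcm10 with radiation were lost when any control or radiation library was left out. With nintedanib the Cdc45 call was lost without control replicate 1 or 3 or nintedanib replicate 2, and that of Mcm10 without nintedanib replicate 2. Mcm10 in the combination against nintedanib lost its call without nintedanib replicate 2 or 3 or combination replicate 2 or 3 (adjusted p up to 0.16 over all settings), and Gins3 with radiation lost its call without control replicate 2 or radiation replicate 2 (adjusted p up to 0.0715 over all settings). The Gins2 call was lost without control replicate 1 or 3 or combination replicate 2 or 3 (adjusted p up to 0.103 over all settings).

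**Figure D4:**
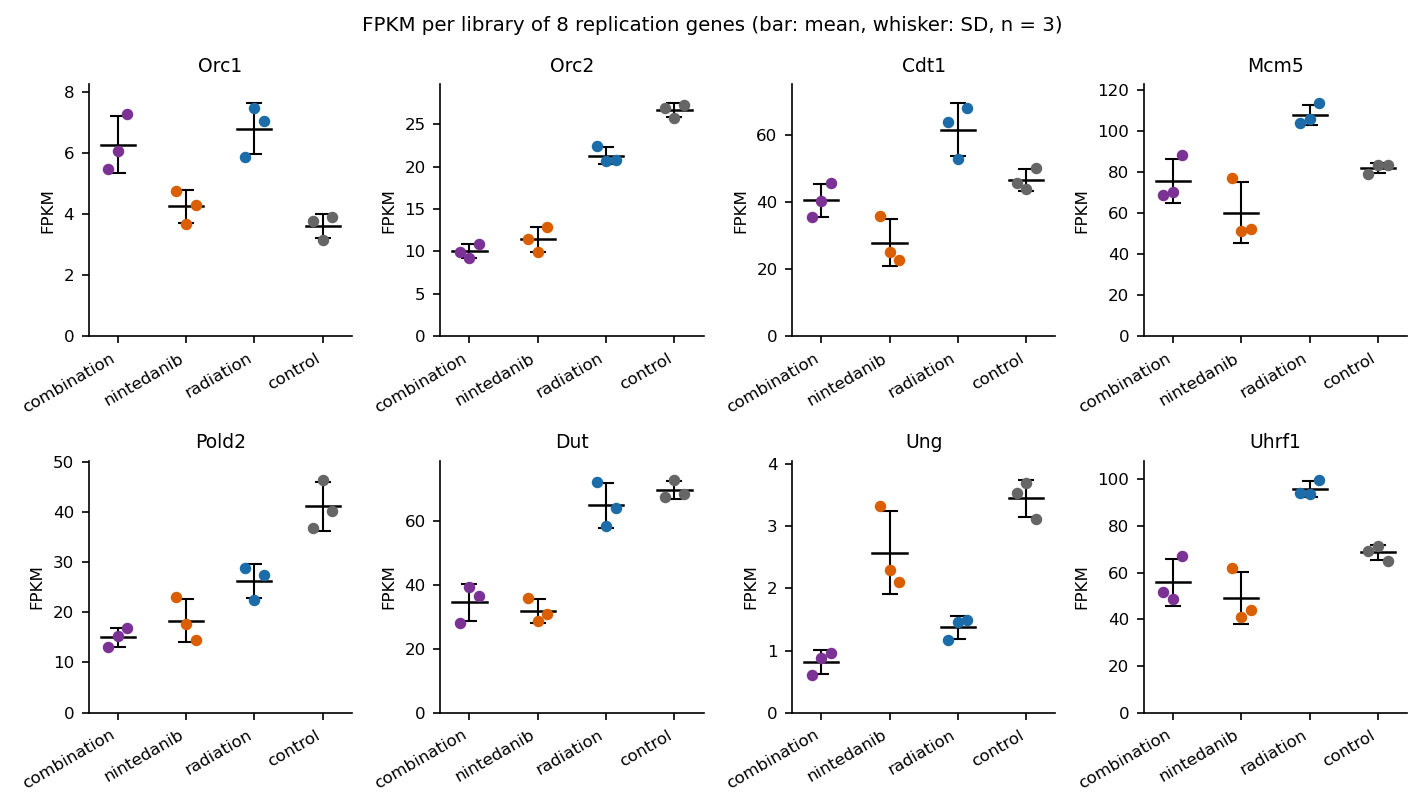
FPKM per library (y axes, starting at 0) of Orc1, Orc2, Cdt1, Mcm5, Pold2, Dut, Ung and Uhrf1 in the 4 groups; points are libraries, bars group means, whiskers SD over 3 libraries. Orc2, Pold2 and Dut are low in both drug-treated groups, Ung is low in both irradiated groups, Orc1 is high in both irradiated groups, and Cdt1, Mcm5 and Uhrf1 are highest with radiation alone.

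Polymerase genes (9) had medians of -0.18 in the combination, -0.14 with nintedanib and 0.18 with radiation. Pold2, an accessory subunit of polymerase delta, which copies the lagging strand (chr11:5872180-5878292, minus strand), had 13.0, 15.2 and 16.8 FPKM in combination libraries, 23.0, 17.6 and 14.4 in nintedanib libraries, 28.7, 22.4 and 27.5 in radiation libraries and 36.8, 46.4 and 40.3 in controls. All treated libraries lay below all controls, and the combination libraries were low throughout. Pold2 fell in the combination, at -1.40 (SE 0.16, adjusted p = 3.53e-05), with nintedanib, at -1.14 (SE 0.16, adjusted p = 0.000185), and with radiation, at -0.63 (SE 0.16, adjusted p = 0.0203). The drop with radiation was lost without control replicate 2, without control replicate 3 or without radiation replicate 2, with an adjusted p of up to 0.0841. The catalytic subunit, Pold1, stood at 19.6, 22.5 and 27.8 FPKM in combination libraries, 22.4, 16.0 and 16.3 in nintedanib libraries, 25.1, 25.2 and 27.9 in radiation libraries and 20.9, 22.2 and 23.8 in controls. Pold3 changed by no more than -0.18 in any comparison with control. Neither was called anywhere.

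Pola1, the catalytic subunit of polymerase alpha, which starts each strand with primase (chrX:93304767-93632155, minus strand), had 11.9, 10.99 and 11.5 FPKM in combination libraries, 13.4, 10.9 and 12.1 in nintedanib libraries, 18.5, 18.9 and 17.5 in radiation libraries and 16.3, 15.2 and 17.6 in controls. Both drug-treated groups lay below both groups without the drug. Pola1 fell in the combination, at -0.48 (SE 0.079, adjusted p = 0.000464), with nintedanib, at -0.41 (SE 0.079, adjusted p = 0.0017), and in the combination against radiation, at -0.63 (SE 0.079, adjusted p = 0.000129), in all 19 settings each. Its partner Pola2 was called nowhere, with a largest estimate of 0.25 in the combination against nintedanib. Prim2, the large primase subunit, rose with radiation, at 0.30 (SE 0.079, adjusted p = 0.0241), with 13.2, 14.2 and 12.6 FPKM in radiation libraries and 10.2, 10.6 and 11.1 in controls. Prim1, the catalytic primase subunit, fell in the combination, at -0.30 (SE 0.10, adjusted p = 0.0311). Pole, the leading-strand polymerase, had 8.89, 7.81 and 8.96 FPKM in combination libraries, 9.06, 7.90 and 8.19 in nintedanib libraries, 11.1, 12.8 and 12.1 in radiation libraries and 10.8, 9.09 and 10.7 in controls. It was lower in the combination than with radiation, at -0.44 (SE 0.086, adjusted p = 0.0022), and its smaller drops against control, -0.23 in the combination and -0.25 with nintedanib, were lost in 14 and 8 of 19 settings. Pole2 was called nowhere, and its estimates against control were 0.10 to 0.18. Leaving out control replicate 1 or 2 or radiation replicate 1 or 2 ended the Prim2 call (adjusted p up to 0.0991 over all settings), and leaving out control replicate 2 or 3 or combination replicate 1 or 2 ended that of Prim1 (adjusted p up to 0.136 over all settings).

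Clamp genes (6) had medians of -0.07 in the combination, -0.26 with nintedanib and 0.04 with radiation. Pcna had 139, 149.8 and 179.6 FPKM in combination libraries, 168, 132 and 134 in nintedanib libraries, 155, 159 and 141 in radiation libraries and 146, 159 and 157 in controls, and its groups overlapped in every comparison. The estimates for Pcna were 0.01, -0.10 and -0.03 for combination, nintedanib and radiation against control, each with an SE of 0.11. The clamp loader subunits went lower with nintedanib in 4 of 5 cases. Rfc4 had 25.5, 27.9 and 23.9 FPKM in combination libraries, 21.0, 17.9 and 22.9 in nintedanib libraries, 31.6, 29.98 and 26.1 in radiation libraries and 31.2, 35.6 and 33.3 in controls. Nintedanib libraries were the lowest, and the combination libraries lay between them and the controls. Rfc4 fell with nintedanib, at -0.68 (SE 0.10, adjusted p = 0.000331), and in the combination, at -0.36 (SE 0.10, adjusted p = 0.0129). Rfc5, Rfc3 and Rfc1 fell with nintedanib, with log2 fold changes of -0.43, -0.34 and -0.18, with adjusted p = 0.0057, 0.0201 and 0.0283. The call of Rfc5 held in all 19 settings, while 5 lost that of Rfc3 and 7 that of Rfc1. Rfc2 was called nowhere, and no clamp gene passed the test with radiation alone. The Rfc4 call in the combination was lost without combination replicate 3 (adjusted p up to 0.0667 over all settings). Without nintedanib replicate 2, or without control replicate 2 or 3, the calls of Rfc3 and Rfc1 with nintedanib were lost, and that of Rfc1 also without control replicate 1 or nintedanib replicate 3.

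The single-strand binding protein RPA and the joining of Okazaki fragments showed few calls. Rpa1, the large RPA subunit, had 43.2, 42.2 and 51.5 FPKM in combination libraries, 47.9, 36.6 and 37.3 in nintedanib libraries, 38.8, 41.8 and 41.0 in radiation libraries and 34.0, 35.2 and 35.2 in controls. Every treated library lay above every control, and Rpa1 rose in the combination, at 0.38 (SE 0.10, adjusted p = 0.0114), while nintedanib and radiation alone gave 0.21 (SE 0.10, adjusted p = 0.135) and 0.21 (SE 0.10, adjusted p = 0.181). Rpa2 and Rpa3 were called nowhere. Lig1, the ligase that seals the fragments, rose with radiation, at 0.37 (SE 0.11, adjusted p = 0.0448), with 40.4, 47.998 and 43.4 FPKM in radiation libraries and 34.4, 33.3 and 33.0 in controls, and 10 of 19 settings lost the call. Fen1, the flap endonuclease, had few fragments and overlapping groups throughout, with 1.401, 1.11 and 1.19 FPKM in combination libraries, 2.06, 1.44 and 0.654 in nintedanib libraries, 1.72, 2.12 and 1.18 in radiation libraries and 1.37, 2.12 and 1.052 in controls.

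Nucleotide supply and uracil removal genes (6) had medians of -0.69 in the combination, -0.29 with nintedanib and -0.19 with radiation, the lowest in the combination and with radiation among the 5 roles of 6 or more genes. Dut, the dUTPase that keeps uracil out of DNA (chr2:125247190-125258608, plus strand), had 28.2, 39.3 and 36.4 FPKM in combination libraries, 36.1, 28.6 and 31.0 in nintedanib libraries, 72.4, 58.4 and 64.2 in radiation libraries and 67.6, 73.0 and 68.7 in controls. The drug-treated libraries lay at roughly the same low level with or without X-rays, below every library without the drug. Dut fell in the combination, at -1.001 (SE 0.13, adjusted p = 7.14e-05), and with nintedanib, at -1.11 (SE 0.13, adjusted p = 4.31e-05), and stood at -0.11 (SE 0.13, adjusted p = 0.606) with radiation. Ung, the glycosylase that cuts uracil from DNA (chr5:114130386-114139323, plus strand), changed more with radiation than with the drug. It had 0.600, 0.881 and 0.961 FPKM in combination libraries, 3.33, 2.30 and 2.10 in nintedanib libraries, 1.16, 1.47 and 1.499 in radiation libraries and 3.54, 3.70 and 3.11 in controls. Irradiated libraries lay below all others, with the combination libraries below all radiation libraries, and the nintedanib libraries overlapped the controls. The combination was also called lower than radiation alone for Ung, a call lost in 11 of 19 settings. Nintedanib against control gave -0.33 (SE 0.14, adjusted p = 0.0729). Ung fell in the combination, at -1.30 (SE 0.14, adjusted p = 1.97e-05), with radiation, at -0.91 (SE 0.14, adjusted p = 0.00169), and in the combination against nintedanib, at -0.97 (SE 0.14, adjusted p = 0.00316). At this low level the size depends on the added constant, and with 0.1 in place of 1 the combination and radiation estimates were -1.98 and -1.27.

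Tk1, the thymidine kinase of the salvage route, had 13.1, 14.6 and 16.7 FPKM in combination libraries, 22.2, 17.3 and 18.0 in nintedanib libraries, 22.5, 21.5 and 22.7 in radiation libraries and 27.3, 29.0 and 27.9 in controls. Libraries of each treatment alone lay below the controls, and the combination libraries lay below both. Tk1 fell in the combination, at -0.88 (SE 0.10, adjusted p = 3.34e-05), with nintedanib, at -0.53 (SE 0.10, adjusted p = 0.00134), and with radiation, at -0.32 (SE 0.10, adjusted p = 0.0456). The drop with radiation was lost in 11 of 19 settings, among them each one that left out a control or radiation library. Tyms, the thymidylate synthase of the other route to thymidine nucleotides, had 4.27, 4.64 and 5.85 FPKM in combination libraries, 6.67, 5.80 and 6.54 in nintedanib libraries, 5.81, 6.26 and 5.57 in radiation libraries and 7.10, 7.36 and 7.45 in controls. All treated libraries lay below all controls. Tyms fell in the combination, at -0.50 (SE 0.093, adjusted p = 0.00111), while the single treatments gave -0.18 (SE 0.093, adjusted p = 0.145) for nintedanib and -0.27 (SE 0.093, adjusted p = 0.0664) for radiation. Rrm1, the large subunit of ribonucleotide reductase, fell in the combination, at -0.25 (SE 0.074, adjusted p = 0.016), and with nintedanib, at -0.25 (SE 0.074, adjusted p = 0.0196). Rrm2 was called nowhere. The Rrm1 call in the combination was lost without control replicate 3 or combination replicate 2 (adjusted p up to 0.125 over all settings), and with nintedanib without control replicate 1 or 3 or nintedanib replicate 2 (adjusted p up to 0.212 over all settings).

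Among the chromatin genes (5), Uhrf1 binds hemimethylated DNA behind the fork and recruits the methyltransferase Dnmt1. Uhrf1 (chr17:56303321-56323486, plus strand) had 51.6, 48.8 and 67.3 FPKM in combination libraries, 61.9, 41.2 and 44.2 in nintedanib libraries, 94.3, 93.7 and 99.9 in radiation libraries and 69.3, 71.6 and 65.2 in controls. Radiation libraries were highest, nintedanib libraries lay below the controls, and the combination libraries overlapped the controls. Uhrf1 fell with nintedanib, at -0.50 (SE 0.15, adjusted p = 0.0182), rose with radiation, at 0.48 (SE 0.15, adjusted p = 0.0455), and was lower in the combination than with radiation, at -0.78 (SE 0.15, adjusted p = 0.00188). The last call held in all 19 settings, while that with nintedanib was lost without control replicate 2 or nintedanib replicate 2 or 3 (adjusted p up to 0.0766 over all settings), and that with radiation when any control or radiation library was left out (adjusted p up to 0.132 over all settings). Dnmt1 fell with nintedanib, at -0.31 (SE 0.11, adjusted p = 0.0405), and 12 of 19 settings lost the call. Slbp, which binds histone mRNA, fell in the combination, at -0.25 (SE 0.083, adjusted p = 0.0299). Its call was lost without control replicate 1 or combination replicate 1 (adjusted p up to 0.111 over all settings). Chaf1a and Chaf1b, of the chromatin assembly factor, were called nowhere, with 8.96, 9.17 and 8.97 FPKM of Chaf1b in radiation libraries and 9.28, 11.7 and 12.4 in controls.

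The effect of each treatment was then set against its effect in the presence of the other, in comparisons that share no library. Of the 21 genes lower with nintedanib against control, 15 were also lower in the combination against radiation (71.4%), which is 83.3% of the 18 lower there. Over all tested genes the same shares were 60.5% and 77.0%. The 15 were Orc2, Orc6, Cdt1, Mcm5, Mcm6, Cdc45, Mcm10, Pola1, Pold2, Pole, Rfc1, Rrm1, Tk1, Dut and Uhrf1. Estimates had the same sign for 45 of the 48 genes (93.8%), against 77.1% of all tested genes, and their correlation across the 48, which are not independent replicates, was 0.82, against 0.75 over all tested genes. For radiation the estimates with and without the drug had the same sign for 37 of the 48 (77.1%), against 63.1% of all tested genes, with a correlation across the 48 of 0.82, against 0.40 over all tested genes. Orc1 and Mcm10 were higher and Ung was lower in both. These were 2 of the 8 that rose with radiation and 1 of the 4 that fell (25.0% each). Over all tested genes those shares were 28.7% and 14.8%. They were also all of the 2 higher and 1 lower in the combination against nintedanib, against 72.6% and 61.8% over all tested genes. None of the 48, that is 0 by limma and 0 by limma voom, passed the test of the interaction, the effect of nintedanib with radiation minus its effect without, and the lowest adjusted p was 0.253. The interaction was called for 0.00769% of all tested genes. Before adjustment 1 of the 48 was under 0.05, Rfc4, with an estimate of 0.50. Interaction estimates ran from -0.42 to 0.50, and 43 of the 48 lay within 0.25 of 0. Rescaled to a common sum they ran from -0.59 (Cdc6) to 0.38, 32 lay within 0.25 of 0, and 39 were below 0, with a median of -0.17 against -0.12 over all genes. The unadjusted 95% intervals reached 0.18 to 0.70 to either side, with a median of 0.34. The adjusted test asks for more than that, and Rfc4 at 0.50 did not pass it. Interactions larger than 0.34 could therefore also have been missed here.

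**Figure D5:**
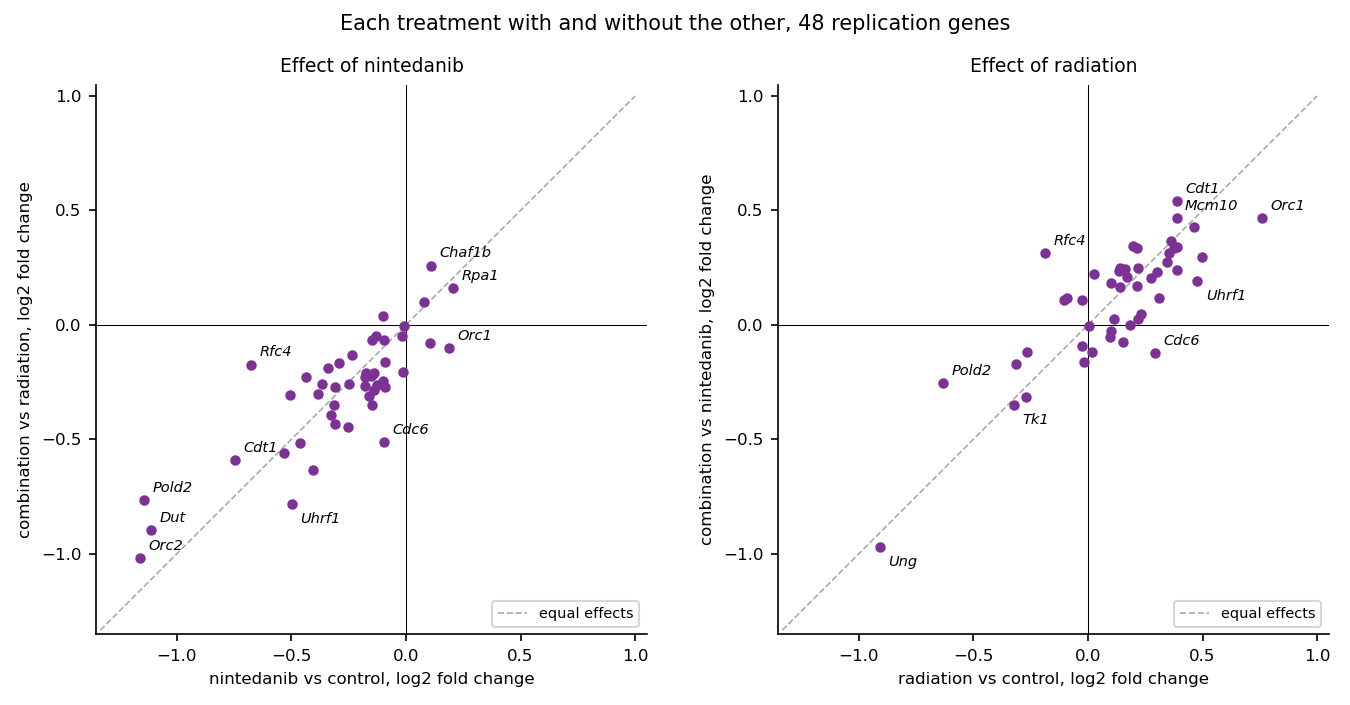
Log2 fold changes of the 48 genes for nintedanib with radiation (combination vs radiation, y axis) and without it (nintedanib vs control, x axis) on the left, and for radiation with the drug (combination vs nintedanib, y axis) and without it (radiation vs control, x axis) on the right; each point is a gene and the dashed line marks equal effects. Orc2, Pold2 and Dut lie at the lower left of the left panel, and Ung at the lower left of the right panel.

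Other genes of replication were counted from lists of related function, to be read against the shares of all tested genes that rose and fell, which were 19.7% and 22.0% with nintedanib, 8.04% and 9.90% with radiation, 22.3% and 25.0% in the combination against control, and 17.2% and 17.3% in the combination against radiation. With nintedanib, 0 of 15 other licensing and firing genes rose and 7 fell (46.7%), led by Mtbp at -1.01 and Recql4 at -1.32, which act in origin firing. Of 13 other fork proteins 5 fell (38.5%), among them the polymerase epsilon subunit Pole3 at -0.67, and of 10 clamp regulators 5 fell, led by the deubiquitinase Usp1 at -0.54. Of 12 other nucleotide genes 2 rose (16.7%) and 5 fell (41.7%), with the cytidine deaminase Cda at 1.21 and the deoxycytidylate deaminase Dctd at -1.24. Of 11 histone chaperone and chromatin genes 1 rose (9.09%) and 6 fell (54.5%), with Cdca7 at -1.30. With radiation 5 of the licensing and firing genes rose (33.3%) and 0 fell, with the firing kinase subunit Dbf4 at 0.50. Of the fork proteins 3 rose (23.1%) and 1 fell, and of the clamp regulators 4 rose (40.0%) and 1 fell, with Dtl at 0.54. Nucleotide genes gave 2 rises and 4 falls (33.3%), and chromatin genes 2 rises (18.2%) and 1 fall, with the chromatin remodeller Hells at 0.66. In the combination against control, 6 licensing and firing genes fell (40.0%) and 3 rose, 5 fork proteins fell and 1 rose, 3 clamp regulators and 3 nucleotide genes fell and 2 nucleotide genes rose, and 6 chromatin genes fell and 1 rose. Against radiation alone the combination had 7 licensing and firing genes, 6 fork proteins, 5 clamp regulators, 4 nucleotide genes and 6 chromatin genes lower, and 1 nucleotide gene higher.

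Among 17 regulators of the G1/S step, 2 rose (11.8%) and 8 fell (47.1%) in the combination, 1 rose (5.88%) and 5 fell (29.4%) with nintedanib, and 3 rose and 3 fell (17.6% each) with radiation. Myc, a transcription factor that drives growth and entry into the cycle, had 26.7, 32.4 and 30.2 FPKM in combination libraries, 41.2, 37.9 and 36.1 in nintedanib libraries, 74.0, 68.9 and 79.6 in radiation libraries and 170.0, 176 and 182 in controls. All treated libraries lay far below all controls, lowest in the combination. Myc fell in the combination, at -2.53 (SE 0.085, adjusted p = 5.9e-08), with nintedanib, at -2.17 (SE 0.085, adjusted p = 6.96e-08), and with radiation, at -1.24 (SE 0.085, adjusted p = 3.57e-05). Ccnd1, cyclin D1, fell in the combination at -1.37, with nintedanib at -1.11 and with radiation at -0.34. E2f3 fell, with a log2 fold change of -0.51 with nintedanib, and E2f2 rose by 0.66 with radiation. Their part in the levels of replication genes was not tested.

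Several values carry a limit of counting. The strand setting of the counting is not given in the sources used here, and 12 of the 48 genes overlap another gene on the opposite strand with a mean of at least 1 FPKM. Overlap was taken from the spans of the genes, and whether their exons overlap was not checked. Without strand, reads from an exon stretch shared by both genes could not be told apart. Partners at a high level were Eif4a2 for Rfc4 (70.8 FPKM on average), Vps35 for Orc6 (56.6 FPKM) and Cops6 for Mcm7 (31.2 FPKM). Further ones were Ufd1 for Cdc45 (20.1 FPKM) and Tmem258 for Fen1 (20.2 FPKM). Orc2 also overlaps Nif3l1, at 4.38 FPKM against 17.4 FPKM for Orc2 itself.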

How the data were processed

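Total RNA was made into mRNA-seq libraries with a SMARTer kit, per the labels' protocols. The authors deposited FPKM for each gene and library, named as such per the file headers. GRCm38 (mm10) is the build in the submitters' processing notes. For the aligner, the counter and the strand setting, the answer is not given in the sources used here. Genes reaching 1 FPKM in 3 or more of the 12 libraries were tested on log2(FPKM + 1) with limma 3.58.1 (R 4.3.3, eBayes with trend), 1 mean per group over all libraries, two-sided, Benjamini-Hochberg adjusted at 0.05 over all genes of a comparison. FPKM steps gave whole fragments for 100% of nonzero values (tolerance 0.01), which fed limma voom as an alternative. The procedure was tested on simulated data of 12419 genes, with 100 changed by 0.5 and 100 by 1 on the log2 scale with nintedanib. It called 58% of the former and 83% of the latter, with 7 false calls. A gene that was not called may therefore still have changed. Alternatives were another pseudocount, another filter, 2 rescalings, voom, a replicate block, only the groups compared, and leaving out each library. Members with a called absolute log2 fold change of at least 0.5 were given per library. Some others were also given per library, in part for selected groups only, and the smallest change of a subgroup was not always among them. Other members named were called or stated as not called. The members and all lists were chosen with earlier results of these data known. Figures and counts used Python 3.11.15, pandas 2.3.3 and matplotlib 3.10.9.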

Additional observations from a re-analysis of the deposited data

How the results depend on the processing

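Of 73 calls of single genes, 31 held in all settings tried, 42 were lost in at least 1, and 0 reversed. With nintedanib the count of called genes ran from 10 to 28 when single libraries were left out (21 with all), and was 13 with only the groups compared. With radiation it ran from 2 to 17 (12 with all), and was 6 with genes above 0 in at least 3 libraries and 24 with only the groups compared. For the combination it ran from 13 to 22 against control (19) and from 11 to 24 against radiation (18), and no other setting moved either by over 1.5 times. Against nintedanib it ran from 1 to 14 (3), and was 1 with genes above 0, 6 with voom, 1 with the replicate block and 0 with only the groups compared. The interaction gave 0 throughout. The cause of these shifts was not tested. The polymerase median in the combination against nintedanib was within 0.01 of 0 as deposited, -0.03 after rescaling to a common sum and 0.009 with size factors. The gene Gm23935 took 0.227 to 10.6% of the FPKM sum.

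Shared replicate numbers did not pair the libraries: same-numbered pairs had correlations of -0.298 to 0.202, 3 of 18 over 0.1, and 3 of 12 libraries correlated best with their own number. With the replicate block the counts were 19 with nintedanib, 9 with radiation, 18 and 16 for the combination against control and radiation, and 0 for the interaction. Depth limits Fen1 and Ung, whose fold changes depend on the added constant.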
